A study of Sparus aurata with 53 samples.

Results

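The cyclins of G2 and M phase and their kinase partner were followed through 1 day in whole larvae of the gilthead sea bream (*Sparus aurata*), namely cyclin A2 (clone C2_4302), cdk1-B (C2_75402), cyclin B1 (C2_3801), cyclin B2 (C2_11108) and cyclin B3 (C2_18447). These 5 genes were taken by clone code out of the 13940 probes of the array, as the G2 and M phase cyclins and cdk1 among the cell-cycle genes that the study itself had listed. Larvae of 30 days after hatching had been kept at 19 °C, 34‰ salinity and 12 h of light with 12 h of darkness, and were sampled every 3 h at 9 zeitgeber times, with light switched on at 0 h and off at 12 h. RNA of each single larva (150 ng) was labelled with 1 dye and hybridised to 1 array, which gave 6 larvae at 0, 3, 6, 9, 15, 18, 21 and 24 h and 5 larvae at 12 h, all of them untreated. Which tank a larva came from was not given in the labels, so the p-values measure the spread between larvae only.

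Cyclins are regulatory subunits that are made and destroyed once in each cell cycle, and they switch on the cyclin-dependent kinase to which they bind. Cyclin A2 acts in S phase and G2, B-type cyclins bind CDK1 to form the kinase that drives entry into mitosis, and exit from mitosis follows when the anaphase-promoting complex marks these cyclins for destruction. In proliferating vertebrate cells the transcripts of these genes also accumulate towards G2 and M, and fish larvae of this age are growing animals in which many tissues hold dividing cells. Since whole larvae were measured, a larger share of cells in G2 and M and more transcript per cell cannot be told apart, and no tissue could be assigned because the array files pair probes with clone codes only.

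Arrays lay on 7 slides that were scanned in 3 batches, with at most 1 array of a sampling time on a slide. Slide 7, scanned alone as the third batch, held 6 arrays and no larva of 0, 3 or 6 h. The brightness below which 75% of the spots fell ranged over the 53 arrays between 142 and 504 fluorescence units, and between 73.8% and 94.1% of the probes were well above background. Levels are given as log2 of the processed signal minus that 75th percentile of the same array, so 0 is the level of a spot at the percentile and 1 unit is a doubling. On this scale the median of all probes moved by 0.14 over the day, from -2.21 at the lowest to -2.07 at the highest time. Cyclin A2, cdk1-B, cyclin B1 and cyclin B3 were well above background on all 53 arrays, and cyclin B2, the faintest spot, on 52 of them. Levels were compared between times and not between probes, whose brightness also depends on the oligonucleotide.

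Cyclin A2, the S and G2 phase cyclin, was on a high plateau between 6 and 15 h and lower at night's end and at dawn. Lowest, median and highest levels were -0.03, 0.45 and 0.71 at 0 h, -0.49, 0.71 and 1.1 at 3 h, and 0.99, 1.08 and 1.52 at 6 h. At 9 h they were 0.77, 1.55 and 1.77, the 5 larvae of 12 h had 0.91, 0.96, 1.22, 1.5 and 1.55, and at 15 h the values were 1.19, 1.46 and 1.56. They were -0.00, 0.94 and 1.05 at 18 h, -0.01, 0.28 and 0.62 at 21 h, and -0.66, 0.07 and 0.84 at 24 h. All 6 larvae of 15 h lay above all larvae of 0, 3, 18, 21 and 24 h, whereas the larvae of 6, 9, 12 and 15 h overlapped. Its means spanned 1.31 log2 units (2.48-fold) between 15 h (1.43 ± 0.13, SD, n = 6) and 24 h (0.12 ± 0.57, SD, n = 6).

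cdk1-B, the kinase that the A and B cyclins activate, had a similar course with a wider spread between larvae. Its lowest, median and highest levels were -1.17, -0.61 and -0.16 at 0 h, -1.72, -0.28 and 0.21 at 3 h, and -0.26, 0.23 and 0.38 at 6 h. They were -0.90, 0.38 and 1.11 at 9 h, the larvae of 12 h had -0.85, -0.03, 0.26, 0.38 and 0.79, and at 15 h they were -0.38, 0.56 and 0.99. The levels were -0.68, -0.21 and 0.44 at 18 h, -1.63, -0.83 and -0.14 at 21 h, and -2.04, -1.07 and -0.36 at 24 h. The larvae of every sampling time overlapped with those of the times on either side. Means spanned 1.57 log2 units (2.98-fold), again between 15 h (0.52 ± 0.50, SD, n = 6) and 24 h (-1.05 ± 0.64, SD, n = 6).

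Cyclin B1, the main mitotic partner of CDK1, stayed low through the morning and stood highest 3 h after lights-off. Its lowest, median and highest levels were -2.08, -1.68 and -1.11 at 0 h, -2.69, -1.63 and -1.35 at 3 h, and -1.75, -1.34 and -1.06 at 6 h. They were -2.15, -0.90 and -0.36 at 9 h, the larvae of 12 h had -1.33, -1.0, -0.83, -0.26 and -0.06, and the values at 15 h were -0.71, -0.12 and 0.39. The levels were -1.61, -0.59 and -0.10 at 18 h, -1.95, -1.69 and -0.52 at 21 h, and -2.46, -1.93 and -1.27 at 24 h. All larvae of 15 h lay above all larvae of 0, 3, 6 and 24 h. The means spanned 1.81 log2 units (3.50-fold) between 15 h (-0.07 ± 0.40, SD, n = 6) and 24 h (-1.88 ± 0.47, SD, n = 6).

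Cyclin B2, a second B-type partner of CDK1, followed the same shape at a faint signal of 3.40 to 82.5 fluorescence units. Its lowest, median and highest levels were -4.44, -4.24 and -4.13 at 0 h, -4.79, -3.89 and -3.17 at 3 h, and -4.18, -3.89 and -3.52 at 6 h. They were -4.05, -3.18 and -2.69 at 9 h, the larvae of 12 h had -3.98, -3.33, -3.21, -3.08 and -2.60, and those of 15 h had -3.26, -2.50 and -2.36. The levels were -3.87, -3.18 and -2.49 at 18 h, -4.45, -3.85 and -3.50 at 21 h, and -6.53, -4.36 and -3.46 at 24 h. All larvae of 15 h lay above all larvae of 0, 6, 21 and 24 h. The value of -6.53 came from the single array on which this probe was not well above background, and the other 5 larvae of 24 h were measured. The means spanned 1.95 log2 units (3.87-fold) between 15 h (-2.60 ± 0.34, SD, n = 6) and 24 h (-4.55 ± 1.07, SD, n = 6).

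Cyclin B3, a B-type cyclin best known for its part in meiosis in other animals, had the widest daily range of the 5 genes. Its lowest, median and highest levels were -1.15, -0.44 and -0.01 at 0 h, -1.10, -0.74 and 0.21 at 3 h, and -0.70, -0.15 and 0.16 at 6 h. They were -0.80, 0.39 and 1.06 at 9 h, the larvae of 12 h had -0.03, 0.18, 0.42, 0.84 and 1.35, and at 15 h the levels were 0.79, 1.34 and 1.82. At 18 h they were -0.54, 0.58 and 0.96, at 21 h -0.60, -0.19 and 0.70, and at 24 h -1.41, -0.60 and 0.10. All larvae of 15 h lay above all larvae of 0, 3, 6, 21 and 24 h. The means spanned 2.01 log2 units (4.04-fold) between 15 h (1.36 ± 0.35, SD, n = 6) and 24 h (-0.66 ± 0.65, SD, n = 6). Its probe was printed on 2 spots, whose log2 values differed by -0.04 ± 0.08 (SD over 53 arrays), far below the spread between larvae of a time.

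**Figure D1:**
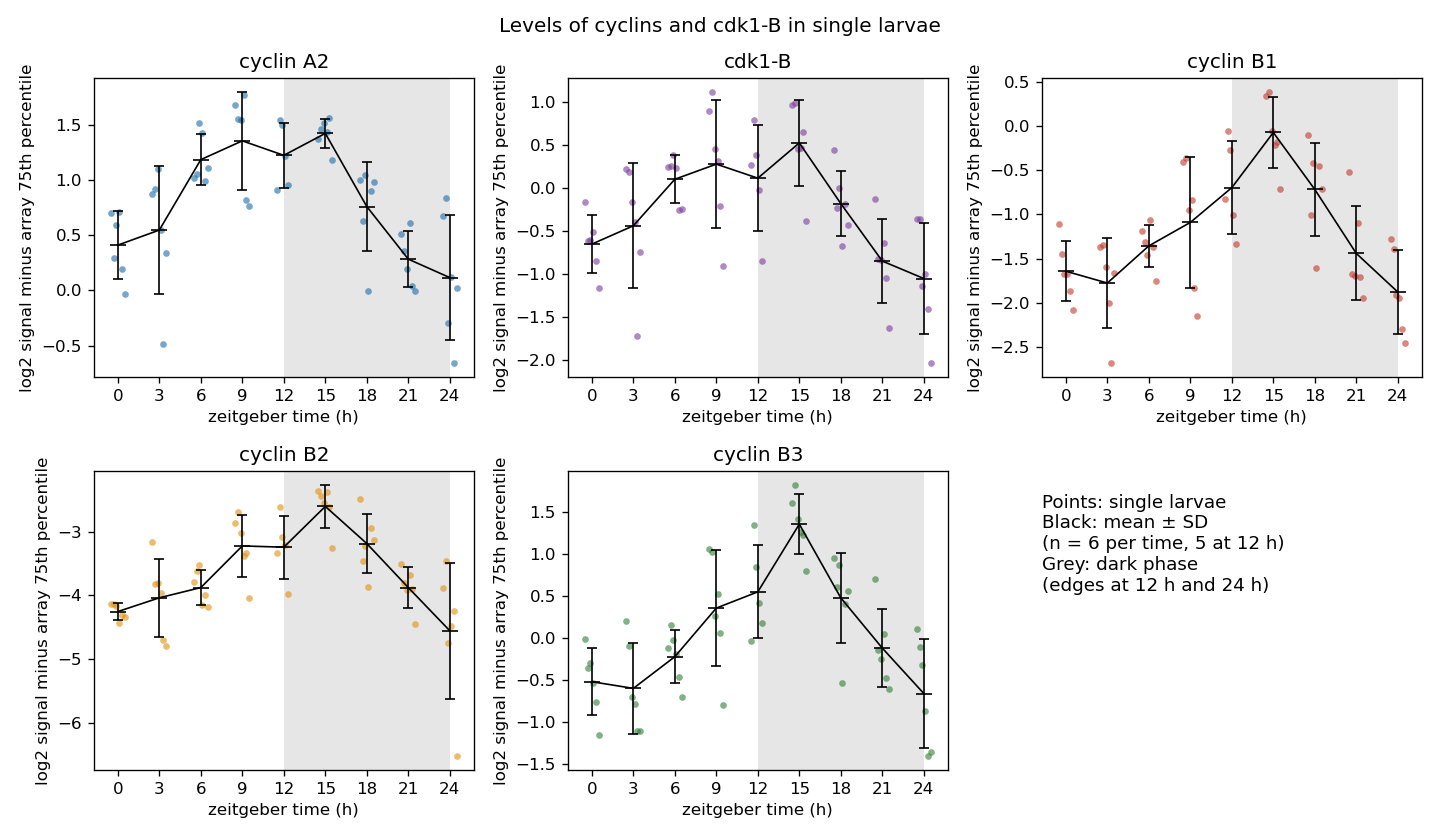
Level of each of the 5 genes (log2 signal minus the array's 75th percentile) against zeitgeber time in h, with 1 point per larva, the mean ± SD in black (n = 6, and 5 at 12 h) and the dark phase in grey. Each gene had its highest mean at 15 h and its lowest at 24 h. The mean of cyclin A2 was 1.19 at 6 h and 1.43 at 15 h, that of cyclin B3 -0.22 at 6 h and 1.36 at 15 h. Levels are to be compared between times within a gene and not between genes.

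The highest mean of each gene was therefore that of 15 h and the lowest that of 24 h, but adjacent levels were rarely distinct. Of the 2194 probes past the F test described below, 363 (16.5%) were highest at 15 h. The 5 genes came from a cluster that the study had formed on these larvae by course over the day. Their shared hour is thus not independent evidence. Without slide 7, which held 1 larva of 24 h and none of 0, 3 or 6 h, 24 h was the lowest time in 2 of the 5 genes only, with cyclin B1 and cyclin B3 then lowest at 3 h and cyclin B2 at 0 h, and the highest mean of cyclin A2 was that of 9 h. With the 9 times of a gene ranked by mean, all 40 steps between neighbours in the ranking had overlapping larvae, and in 5 of the 40 the gap was larger than the larger SD. These were the steps of 6 h over 18 h for cyclin A2 (0.43), 15 h over 12 h for cyclin B1 (0.63) and cyclin B3 (0.80), and 12 h over 6 h (0.63) and 15 h over 18 h (0.58) for cyclin B2. For cdk1-B no step exceeded the larger SD. Sampling time accounted for 64.1% of the variance of cyclin A2, 51.5% for cdk1-B, 61.0% for cyclin B1, 59.9% for cyclin B2 and 64.7% for cyclin B3, against a median of 19.1% over all probes. Since the study had listed these genes for changing over the day in the same larvae, shares above that median are not independent evidence.

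All 5 genes passed the moderated F test over the 9 times (limma, called at a Benjamini-Hochberg adjusted p of 0.05 over 13940 probes), as did 15.7% of all probes. Adjusted p was 2.34e-06 for cyclin A2, 0.000424 for cdk1-B, 8.60e-06 for cyclin B1, 1.37e-05 for cyclin B2 and 1.22e-06 for cyclin B3. The study had listed these genes because they passed its own test on the same larvae, so this count is not independent evidence of a daily change. Cyclin B2 lost the call, with an adjusted p of 0.28, when the background was corrected by the normexp model with an offset of 50, and its adjusted p over the 26 alternatives of that test ran between 5.74e-09 and 0.28.

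A 24 h cosine was fitted to place each gene in the day, and 5 of the 5 genes passed it, with 29.6% of all probes. Since the genes were listed for changing over the day in these larvae, that count is not independent evidence either. Fitted peaks were at 11.1 ± 0.49 h for cyclin A2, 11.4 ± 0.65 h for cdk1-B, 14.1 ± 0.49 h for cyclin B1, 13.6 ± 0.52 h for cyclin B2 and 14.1 ± 0.45 h for cyclin B3 (SE, 53 larvae). Fitted height from trough to peak was 1.24, 1.29, 1.51, 1.55 and 1.70 log2 units in the same order of genes, with adjusted p between 2.46e-09 for cyclin B3 and 6.53e-06 for cdk1-B (limma). The 5 genes thus fell into an early pair, cyclin A2 and cdk1-B, and a later trio of B cyclins. Adding a 12 h wave called none of the 5 genes (adjusted p 0.999 for each, unadjusted p 0.13 to 0.39, limma), and 0.1% of all probes.

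The gap between the early pair and the B cyclins was larger than its error. The grouping was read from these same peaks, and the intervals were adjusted neither for the number of pairs nor for slide. Cyclin B1 peaked later than cyclin A2 by 3.01 h (95% interval 2.10 to 3.91 h), cyclin B3 by 2.93 h (2.04 to 3.83 h) and cyclin B2 by 2.46 h (1.41 to 3.51 h). Over cdk1-B the delay was 2.72 h for cyclin B1 (1.79 to 3.65 h), 2.64 h for cyclin B3 (1.67 to 3.62 h) and 2.17 h for cyclin B2 (1.23 to 3.11 h). Within the early pair cdk1-B was 0.29 h later than cyclin A2, with an interval of -0.53 to 1.11 h. Among the B cyclins the differences were -0.55 h for B2 minus B1 (-1.36 to 0.27 h), -0.07 h for B3 minus B1 (-0.55 to 0.41 h) and 0.47 h for B3 minus B2 (-0.28 to 1.22 h), all of which include 0. A cosine describes a plateau and a spike alike by 1 hour, and the highest sampled mean was at 15 h in each gene.

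**Figure D2:**
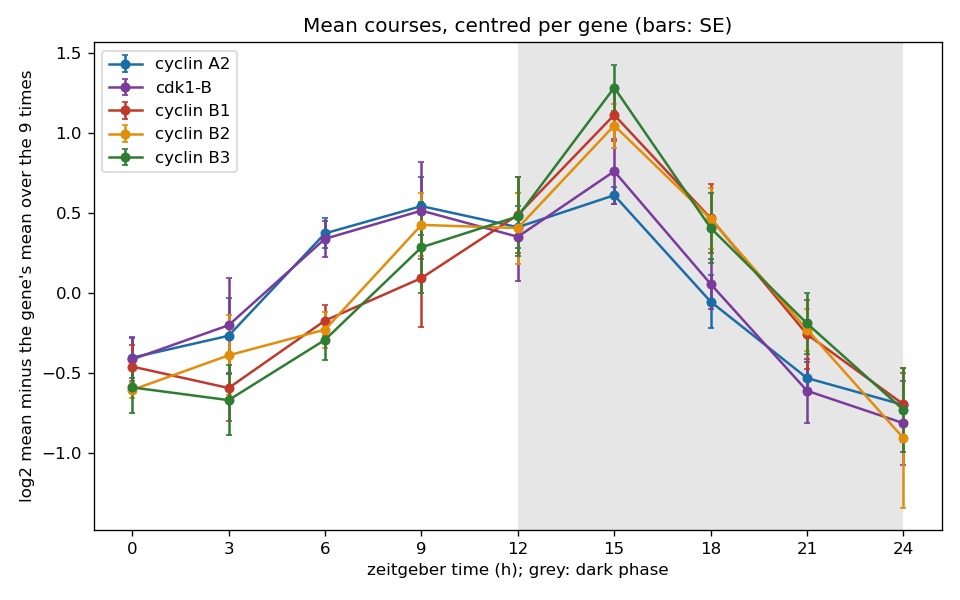
Mean of each gene minus its own mean over the 9 times (log2) against zeitgeber time in h, with SE bars (n = 6, and 5 at 12 h) and the dark phase in grey. Cyclin A2 and cdk1-B had covered 92.3% and 74.4% of their rise between 3 and 15 h by 9 h, the B cyclins 40.3% to 56.8%.

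The difference in shape was also described from the means, as shares of the rise that carry no error and were not tested. Of the rise between 3 h and 15 h, cyclin A2 had covered 92.3% by 9 h and cdk1-B 74.4%, against 56.8% for cyclin B2, 48.9% for cyclin B3 and 40.3% for cyclin B1. For 12 h over 9 h cyclin A2 changed by -0.13 ± 0.23 (log2, SE), cdk1-B by -0.16 ± 0.32 and cyclin B2 by -0.02 ± 0.32, while cyclin B1 changed by 0.39 ± 0.30 and cyclin B3 by 0.19 ± 0.31.

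At 15 h against 3 h, a pair of times 3 h into darkness and 3 h into light, all 5 genes were higher, as were 4.67% of all probes, while 5.16% were lower. The 5 genes came from a cluster that the study had formed on the same larvae by course over the day. Their shared direction and separation here are thus not independent evidence. The log2 difference was 0.88 ± 0.22 (SE) for cyclin A2 (1.84-fold, adjusted p 0.00545, limma). cdk1-B differed by 0.96 ± 0.31 (1.95-fold, adjusted p 0.0363), with the highest adjusted p of the 5. The B cyclins differed more, by 1.71 ± 0.28 for B1 (3.26-fold, adjusted p 1.65e-05), 1.44 ± 0.30 for B2 (2.71-fold, adjusted p 0.000606) and 1.95 ± 0.29 for B3 (3.87-fold, adjusted p 2.46e-06). The median over the 5 genes was 1.44 and over all probes 0.01. In 3 of the genes (cyclins A2, B1 and B3) every larva of 15 h was above every larva of 3 h, which held for 2.63% of all probes, and in cdk1-B and cyclin B2 the larvae overlapped.

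This difference was also seen within slides and scan batches. On the 5 slides that held a larva of both times, 15 h was above 3 h on 5 of 5 slides for each gene, by 0.42 to 1.93 for cyclin A2, 0.62 to 2.18 for cdk1-B, 1.48 to 2.48 for cyclin B1, 0.81 to 2.31 for cyclin B2 and 1.40 to 2.36 for cyclin B3. Within the first scan batch (3 larvae against 4) the differences were 0.59, 0.84, 1.80, 1.23 and 1.96 in that order, and within the second (2 larvae against 2) 1.58, 1.79, 1.98, 2.24 and 2.35. The third batch held no larva of 3 h. With slide as a block all 5 remained higher, by 0.93 for cyclin A2, 1.12 for cdk1-B, 1.81 for B1, 1.56 for B2 and 2.06 for B3. Without replicate 5 at all times the calls of cyclin A2 (0.64, adjusted p 0.0529) and cdk1-B (0.68, adjusted p 0.244) were lost, and that of cdk1-B also without replicates 2, 3 or 4. Over 24 alternatives the difference of cdk1-B ran between 0.68 and 1.16, and the call was lost in 8 of them (adjusted p 6.39e-06 to 0.244). After normexp correction the difference of cyclin B2 was 0.47 (adjusted p 0.657) and that of cdk1-B 0.81 (adjusted p 0.0516).

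None of the 5 genes was called between successive sampling times. The share of all probes called, in either direction, was 0.273% for 3 h over 0 h, 0.179% for 6 h over 3 h, 0.122% for 9 h over 6 h, 0.0359% for 12 h over 9 h, 0.409% for 15 h over 12 h, 0.746% for 18 h over 15 h, 0.617% for 21 h over 18 h and 0.28% for 24 h over 21 h. At an unadjusted p of 0.05 the number of the 5 genes past the threshold was 0, 1, 1, 0, 3, 4, 5 and 1 in the same order of steps (limma). The share of all probes at that unadjusted threshold was not taken. The shares above are for adjusted p and cannot be set beside these numbers. All 5 means were higher at 6 h than at 3 h, at 9 h than at 6 h and at 15 h than at 12 h. All 5 were lower at 18 h than at 15 h, at 21 h than at 18 h and at 24 h than at 21 h. After normexp correction cyclin B2 was instead higher at 18 h than at 15 h (0.32). Directions were mixed in the other steps, with 3 of the 5 means higher for 3 h over 0 h and 2 for 12 h over 9 h. The genes shared a cluster that the study had formed on these larvae by course over the day. Their shared direction is thus not independent evidence.

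Cyclin A2 had its largest upward step at 6 h over 3 h (0.64 ± 0.22, unadjusted p 0.00606, adjusted p 0.346, limma), on 6 of 6 slides. Cyclins B1 and B3 had theirs at 15 h over 12 h. Cyclin B2 had its largest at 9 h over 6 h (0.65 ± 0.30, adjusted p 0.888, limma), close to 0.64 ± 0.32 for 15 h over 12 h (adjusted p 0.807). For 15 h over 12 h cyclin B3 differed by 0.80 ± 0.31 (adjusted p 0.50) and cyclin B1 by 0.63 ± 0.30 (adjusted p 0.775), each on 4 of 4 slides, against 0.20 ± 0.23 for cyclin A2 (adjusted p 0.999, 3 of 4 slides). After 15 h all 5 means moved down, with 18 h minus 15 h at -0.66 ± 0.22 for cyclin A2, -0.70 ± 0.31 for cdk1-B, -0.65 ± 0.28 for B1, -0.58 ± 0.30 for B2 and -0.88 ± 0.29 for B3 (adjusted p 0.184 to 0.496, limma).

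These steps gained calls once slide differences were taken out. With slide as a block, cyclin B3 was higher by 0.96 for 15 h over 12 h (adjusted p 0.00926, limma). For 18 h over 15 h cyclin B3 had -0.86 (adjusted p 0.00729) and cdk1-B -0.67 (adjusted p 0.0207), and for 21 h over 18 h cdk1-B had -0.63 (adjusted p 0.0458). Scan batch as a block gave the same calls for 15 h over 12 h (0.99, adjusted p 0.0141, cyclin B3) and 18 h over 15 h (adjusted p 0.0155 for cyclin B3 and 0.0431 for cdk1-B), and none for 21 h over 18 h (adjusted p 0.0691 for cdk1-B). Over all alternatives the adjusted p of cyclin B3 ran between 0.00926 and 1.00 for 15 h over 12 h and between 0.00729 and 0.484 for 18 h over 15 h, and that of cdk1-B between 0.0207 and 0.705 for 18 h over 15 h and between 0.0458 and 0.896 for 21 h over 18 h.

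At 24 h against 0 h, the same clock hour 1 day apart, none of the 5 genes was called, and 0% of all probes (449 of 13940 at an unadjusted p of 0.05, limma). All 5 means were lower at 24 h, by -0.30 ± 0.22 for cyclin A2, -0.40 ± 0.31 for cdk1-B, -0.24 ± 0.28 for B1, -0.30 ± 0.30 for B2 and -0.14 ± 0.29 for B3 (log2, SE, adjusted p 0.958 to 0.971). The 24 h mean of cyclin B2 included the array on which it was not well above background, and without slide 7, which held that array, the difference of cyclin B2 was 0.09, with -4.16 at 24 h and -4.25 at 0 h, and that of cyclin B3 was -0.00 (adjusted p 1.00 for both, limma). Within slides the direction was mixed, with 24 h above 0 h on 2 or 3 of 5 slides for each gene.

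Whether the genes changed by different amounts was tested within larvae. The value tested was the log2 level of 1 gene minus that of another in the same RNA. The scaling of the array drops out of this value, but differences between slides can remain in it. For cdk1-B minus cyclin A2 it was -0.42 on slide 1 and -1.57 on slide 7 at 15 h, and -0.79 and -1.67 at 9 h. Larvae were permuted across slides in all tests of this value, so their p-values take no account of slide. Over 10 pairs of genes and 3 intervals (6 h over 3 h, 15 h over 9 h, 21 h over 15 h), 30 two-sided exact permutation tests were run and adjusted together, and 4 passed, all of them for 15 h over 9 h. Cyclin B1 minus cyclin A2 was -1.89, -1.61 and -1.04 (lowest, median, highest) at 15 h, against -2.92, -2.56 and -1.92 at 9 h. Every larva of 15 h was above every larva of 9 h, by a narrow margin between the nearest of them.

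Cyclin B1 thus gained 0.95 on cyclin A2, with means of -1.50 ± 0.35 at 15 h and -2.45 ± 0.38 at 9 h (SD, n = 6 each), an exact permutation p of 0.00216, which is the smallest that 6 larvae against 6 allow, and an adjusted p of 0.0162. Cyclin B3 gained 0.93 on cyclin A2, with -0.07 ± 0.30 at 15 h and -1.0 ± 0.42 at 9 h (exact permutation, adjusted p 0.0162). On cdk1-B the gain was 0.77 for cyclin B1 and 0.75 for cyclin B3 (exact permutation, adjusted p 0.0162 for each). Cyclin B2 gained 0.55 on cyclin A2 (adjusted p 0.0779, exact permutation) and 0.38 on cdk1-B (adjusted p 0.18), and neither passed.

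Each of the 4 gains had the same sign on the 5 slides that held both times, and in the 3 scan batches. The batches held few larvae, with 3 of 15 h against 4 of 9 h in the first, 2 against 1 in the second and 1 against 1 in the third. The third batch was slide 7, so its pair of larvae is also among the 5 slides. For cyclin B1 over cyclin A2 the gain was 0.84 to 1.04 within slides, and 1.05, 0.96 and 1.03 within the scan batches. For cyclin B3 over cyclin A2 it was 0.58 to 1.19 within slides and 1.08, 0.50 and 1.17 within the scan batches. cdk1-B changed by 0.18 relative to cyclin A2 (adjusted p 0.577, exact permutation), on 4 of 5 slides. Cyclin B3 changed by -0.02 relative to cyclin B1 (adjusted p 0.927, exact permutation). After normexp correction the gains of cyclin B1 were 0.54 on cyclin A2 (adjusted p 0.175) and 0.44 on cdk1-B (adjusted p 0.0909, exact permutation), neither of which passed. With replicate 2, 3, 4, 5 or 6 or slide 7 left out, 5 larvae a time remained, all 4 gains were at the smallest exact permutation p that this allows (0.00794), and none passed after adjustment (0.0595). Over 20 alternatives the adjusted p of the 4 pairs was never under 0.0162, and it reached at most 0.175 for B1 over A2, 0.0909 for B1 over cdk1-B and 0.0595 for B3 over either.

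In the other intervals no pair passed, though after normexp correction 3 pairs did for 21 h over 15 h, namely cyclin B2 over cdk1-B (0.71, adjusted p 0.0325), cyclin B3 over cyclin B1 (-0.31, adjusted p 0.0162) and cyclin B3 over cyclin B2 (-0.86, adjusted p 0.0162, exact permutation). For 6 h over 3 h the lowest adjusted p was 0.18, for cyclin B2 over cyclin A2 (-0.48, exact permutation). For 21 h over 15 h it was 0.254, for cyclin B3 over cyclin A2 (-0.33, exact permutation), and cyclin B1 over cdk1-B changed by 0.00, with -0.59 ± 0.24 at 21 h and -0.59 ± 0.17 at 15 h (SD, n = 6 each). With 15 h over 12 h in place of 15 h over 9 h none of the 10 pairs passed, cyclin B3 over cyclin A2 coming closest (0.61, unadjusted p 0.013, adjusted p 0.39, exact permutation).

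**Figure D3:**
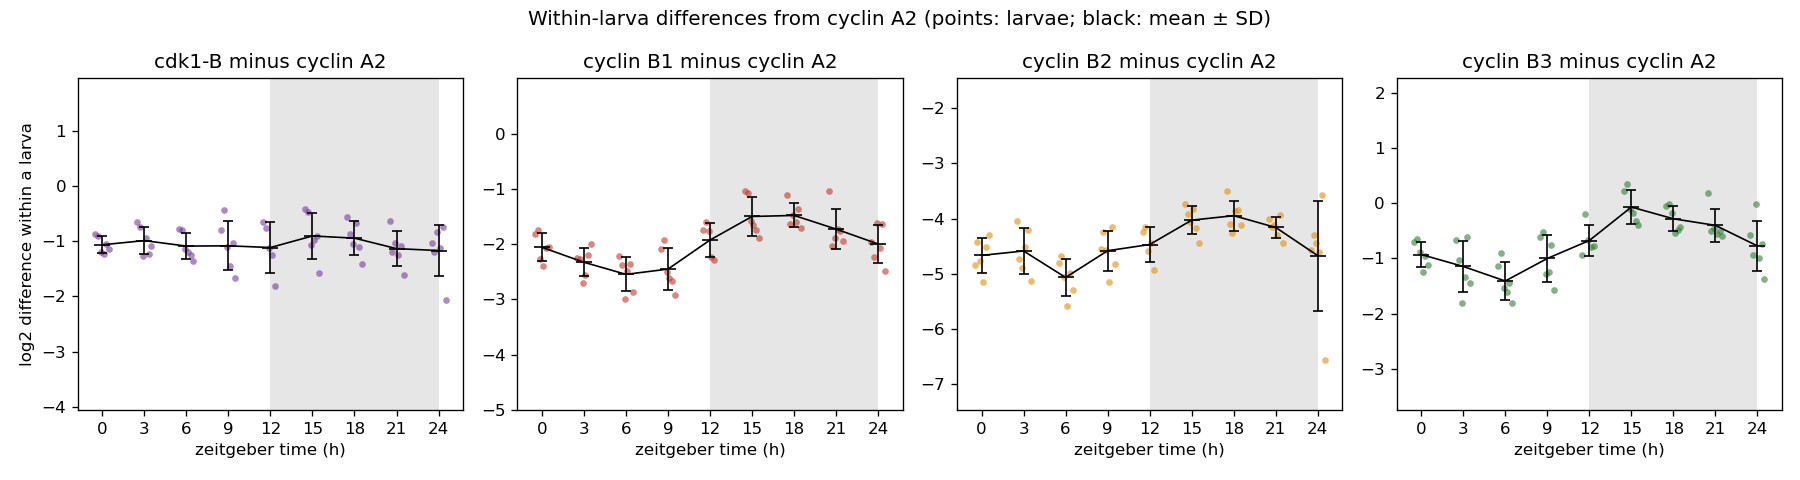
Log2 level of cdk1-B, cyclin B1, cyclin B2 and cyclin B3 minus that of cyclin A2 in the same larva, against zeitgeber time in h (points are larvae, black is mean ± SD, grey is the dark phase). The difference of cyclin B1 averaged -1.50 at 15 h and -2.45 at 9 h, that of cdk1-B -0.91 at 15 h and -1.08 at 9 h.

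Larvae of 1 sampling time also differed from each other, and the 5 genes did so together. After the mean of each sampling time was taken off, Pearson's r over the 53 larvae was 0.56 to 0.91 for the 10 pairs of genes (median 0.77) and Spearman's rho 0.62 to 0.89. The highest r was for cdk1-B with cyclin B1 (0.91) and the lowest for cyclin A2 with cyclin B2 (0.56). Permutation p-values, with larvae permuted within times, were 1e-05 for 9 of the 10 pairs, the smallest that 100000 draws can give, and 0.00064 for cyclin A2 with cyclin B2, with adjusted p at most 0.00064 for Pearson's r and at most 5e-05 for Spearman's rho. Larvae of a time lay on different slides and were permuted across them, so these p-values do not tell slides from larvae. Without the 2 farthest larvae r was 0.61 to 0.89. In 13 larvae all 5 genes were above the mean of their time and in another 13 all 5 were below.

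Slides moved with these deviations. The mean deviation of the 5 genes was 0.35 on slide 1, 0.34 on slide 2, 0.21 on slide 3, 0.02 on slide 4, -0.28 on slide 5, -0.22 on slide 6 and -0.59 on slide 7. With slide differences removed, r was 0.45 to 0.86 (median 0.70), within the first scan batch 0.45 to 0.88, within the second 0.49 to 0.88 and within the third 0.25 to 0.96. Within single slides of 6 to 8 larvae r ran between -0.61 and 0.96, and it was below 0 only for pairs with cyclin B2. Many other probes shared the deviation, since their r with the mean deviation of the 5 genes had a 5th percentile of -0.63 and a 95th percentile of 0.62. That r is with a mean of 5 genes and is not the r of pairs given above. It ran between -0.19 (cyclin D1) and 0.83 (RFC3) over the 14 G1/S genes described below. Over the 15 G2/M partners it ran between -0.69 (CDK inhibitor 1) and 0.90 (CDK regulatory subunit 1). The deviation was thus not particular to G2 and M phase genes.

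The brightness of an array, its 75th percentile on a log2 scale after the time mean was taken off, was related to the mean deviation of the 5 genes over all larvae (r = -0.43, rho = -0.49, permutation p 0.0032 and 0.00069, r = -0.46 without the 2 farthest). This relation did not hold within scan batches, where r was 0.40, 0.07 and -0.01.

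**Figure D4:**
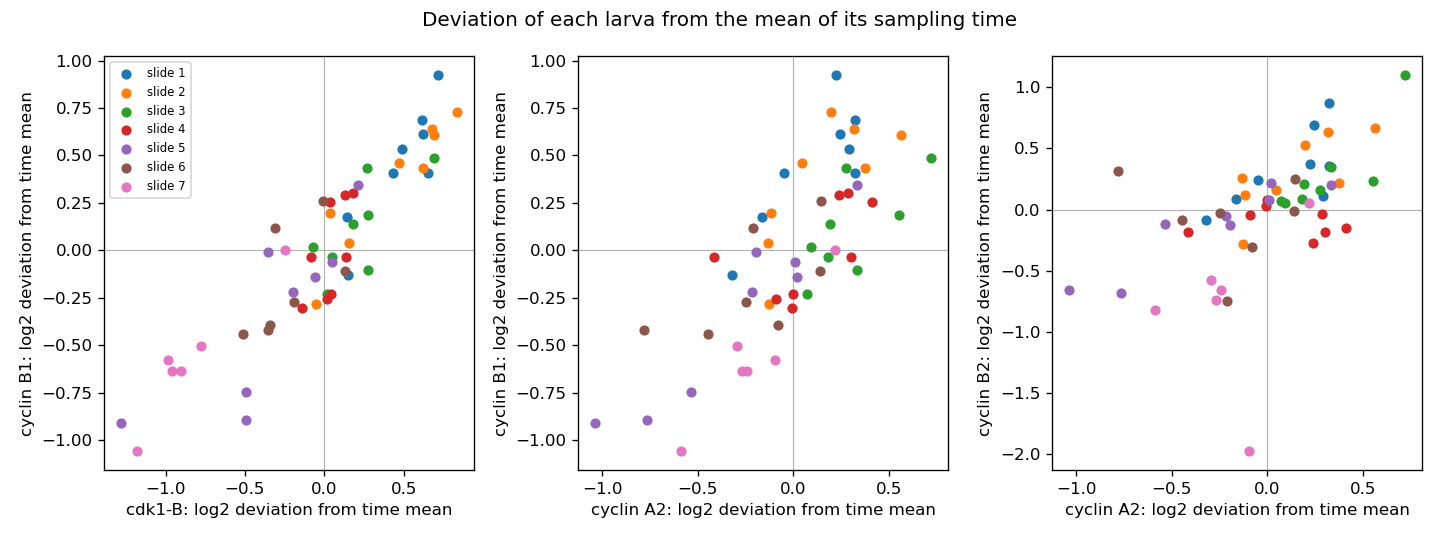
Deviation of each larva from the mean of its sampling time (log2), for cyclin B1 against cdk1-B and against cyclin A2 and for cyclin B2 against cyclin A2, with 1 point per larva coloured by slide. r was 0.91, 0.78 and 0.56 over the 53 larvae, and the larvae of slide 7 lay mostly at the lower left.

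Around the cyclin-CDK1 kinase stand its regulators and the machinery of mitosis, here 15 genes that the study had listed from the same larvae. All 15 passed the F test (15.7% of all probes did), which is not independent evidence since they were listed for passing it. Most also came from the cluster of the study that held the 5 genes, formed on these larvae by course over the day. Their ranges, hours and differences between times are thus not independent evidence either. Their median range of means was 1.62 log2 units, against 0.62 over all probes. The highest mean was at 15 h in 11 of the 15 (363 of the 2194 probes past the F test, or 16.5%, were highest at that time). At 15 h against 3 h, 11 were higher and 1 lower (4.67% and 5.16% of all probes), with a median of 1.47 against 0.01 over all probes.

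Direct regulators of the kinase differed among themselves in hour. The wee1-like kinase, which holds CDK1 inactive, was highest at 9 h (fitted peak 8.12 ± 0.66 h, SE, F test adjusted p 0.0158, limma). Its probe was well above background on 45 of the 53 arrays, and its F test call was lost in 7 of 26 alternatives (adjusted p 0.00166 to 0.438). The M-phase inducer phosphatase 1, a CDC25 phosphatase that removes that block, was highest at 15 h with a fitted peak at 16.4 ± 0.49 h (F test adjusted p 9.22e-06). At 15 h against 3 h the phosphatase was higher by 1.12 (adjusted p 2.49e-05), whereas the wee1-like kinase had a difference of -0.21 (adjusted p 0.705). Chk1, a checkpoint kinase that acts on both, was highest at 6 h and lower at 15 h than at 3 h (-1.20, adjusted p 0.000139). CDK inhibitor 1, a brake on cyclin-dependent kinases, had the widest range of the 15, 4.29 log2 units (19.6-fold), with its highest mean at 12 h. CDK regulatory subunit 1, a small protein that binds CDK1, peaked at 12.2 ± 0.60 h.

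PLK1, which promotes mitotic entry, spanned 2.28 log2 units and peaked at 13.4 ± 0.40 h. Its probe was well above background on 41 of the 53 arrays and on 2 of the 6 at 0 h, its lowest time, and its F test call was lost after normexp correction (adjusted p 0.28, 1.64e-10 to 0.28 over 26 alternatives). PLK4, a kinase of centriole duplication, peaked at 11.1 ± 1.34 h (cosine adjusted p 0.0470, limma). The F test call of PLK4 was kept in 19 of 26 alternatives only (adjusted p 0.0134 to 0.407). Aurora kinase A-A, a spindle-pole kinase, peaked at 13 ± 0.35 h. CDC20, the activator of the anaphase-promoting complex, had lowest, median and highest levels of 1.70, 1.87 and 2.11 at 15 h, against -0.55, -0.19 and 0.40 at 3 h. The larvae of these times did not overlap, the difference being 2.06 (adjusted p 6.40e-11, limma), and CDC20 was the only one of the 15 called for 15 h over 12 h (0.89, adjusted p 0.0363). UBE2C, an ubiquitin-conjugating enzyme of the same complex, peaked at 12.7 ± 0.42 h. CDC23, a subunit of that complex, peaked at 9.84 ± 0.79 h and spanned only 0.40 log2 units. The F test call of CDC23 was kept in 18 of 26 alternatives (adjusted p 0.00361 to 0.432). That of UBE2S, another ubiquitin-conjugating enzyme, was kept in 16 of 26 (adjusted p 0.000295 to 0.254). The probe of aurora borealis was well above background on 43 of the 53 arrays. Its F test call was lost after normexp correction (adjusted p 0.432). PRC1, a spindle midzone protein, was higher by 1.95 for 15 h over 3 h. KIF11-B, the bipolar spindle motor, had a difference of 1.94, but its probe was well above background on 6 of 6 arrays at 15 h and on 2 of 6 at 3 h (32 of 53 in all), and its F test call was lost after normexp correction (adjusted p 0.432, 4.15e-05 to 0.432 over 26 alternatives).

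**Figure D5:**
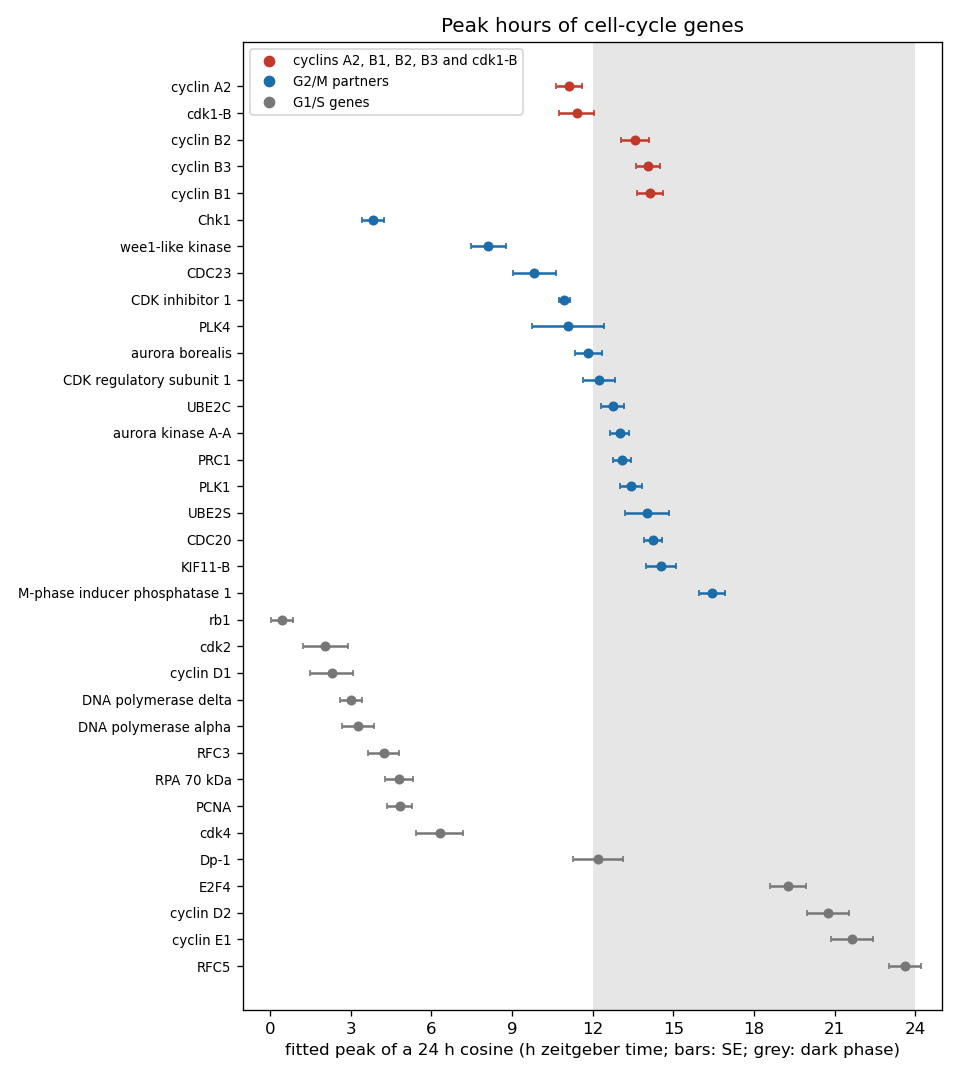
Fitted peak of a 24 h cosine (h zeitgeber time, bars are SE, 53 larvae) for the 5 genes in red, 15 G2/M partners in blue and 14 G1/S genes in grey, with the dark phase shaded. Cyclin A2 and cdk1-B peaked at 11.1 and 11.4 h and the B cyclins between 13.6 and 14.1 h, while DNA polymerase delta and PCNA peaked at 3.01 and 4.82 h.

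For comparison, 14 genes of G1 and S phase, listed by the study on the same larvae, were examined. They were listed for passing its test, and most came from a cluster that it had formed by course over the day. Their calls, hours and differences between times are thus not independent evidence. Of the 14, 11 passed the F test (15.7% of all probes did), with cdk2, cdk4 and cyclin D2 short of the threshold (adjusted p 0.0558, 0.0712 and 0.0636, limma). With the methods' analysis of variance these 3 passed (adjusted p 0.0469, 0.0343 and 0.0143). Among the 11, cyclin D1 kept its call in 11 of 26 alternatives and Dp-1 in 18 of 26. The highest mean fell at 0, 3 or 6 h in 8 of the 14, against 29.4% of the probes past the F test. It fell at 9, 12 or 15 h in 3 of the 14, namely cdk4, Dp-1 (fitted peak 12.2 h) and E2F4 (highest at 15 h). At 15 h against 3 h, 8 were lower and 2 higher (5.16% and 4.67% of all probes), with a median of -0.58. Transcripts of replication fork components among them peaked in the morning, with DNA polymerase delta at 3.01 ± 0.42 h, DNA polymerase alpha at 3.27 ± 0.61 h, RFC3 at 4.22 ± 0.59 h, replication protein A at 4.80 ± 0.52 h and PCNA, the sliding clamp, at 4.82 ± 0.45 h (SE). RFC5 was an exception, at 23.6 ± 0.59 h. Its probe was well above background on 47 of the 53 arrays and on 3 of the 5 at 12 h, its lowest time. After normexp correction the F test calls of RFC5 (adjusted p 0.44), replication protein A (0.342) and DNA polymerase alpha (0.432) were lost. DNA polymerase delta, RFC3 and PCNA kept theirs in 26 of 26 alternatives. PCNA had -0.91 at 15 h against 3 h (adjusted p 0.00155) and DNA polymerase delta -1.29 (adjusted p 3.85e-06). Cyclin E1, the G1/S cyclin, was highest at 21 h, with a difference of 1.32 for 15 h over 12 h (adjusted p 0.0156, limma). Its probe was well above background on only 3 of the 5 arrays at 12 h, its lowest time. The F test call of cyclin E1 was lost after normexp correction (adjusted p 0.432).

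Over the 53 arrays the members resembled each other and a part of this mitotic set. Each gene's r with the mean of the other 4 was 0.82 for cyclin A2, 0.90 for cdk1-B, 0.92 for cyclin B1, 0.89 for cyclin B2 and 0.92 for cyclin B3, a description in which the arrays share slides. Correlation with the centred mean of the 5 genes had a median of 0.74 over the 15 G2/M partners, -0.17 over the 14 G1/S genes and 0.00 over all probes. The 5 genes and most of the G2/M partners shared a cluster of the study, and most G1/S genes were in another. These correlations are thus not independent evidence of likeness. Among the 9116 other probes well above background on all arrays, the 10 most alike had r between 0.91 and 0.96. These included UBE2C (r = 0.95), CDK regulatory subunit 1 (r = 0.94) and aurora kinase A-A (r = 0.93). The other 7 are known here by clone code only, led by C2_24737 (r = 0.96) and C2_4393 (r = 0.96).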

How the data were processed

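The authors deposited the scanner output of 53 single-colour arrays, made with Agilent Feature Extraction 11.5.1.1, as background-corrected intensity values in fluorescence units, and a table of log2 values shifted to each array's 75th percentile and centred per probe. The genome build was not given in the sources used here. In R 4.3.3, the 536 controls of each array were left out, as were 974 outlier spots in all (none of the 5 genes), the 75th percentile of log2 processed signal was subtracted per array and spots of a probe were averaged. Limma 3.58.1 fitted 9 group means or 24 h and 12 h waves, with Benjamini-Hochberg adjustment over 13940 probes and a threshold of 0.05. Number of arrays limits precision. Normexp used the median spot signal, as the mean signal was not used here. Group, replicate number and time came from the labels, clone names from the study's lists. Gene lists and the 5 genes were chosen with earlier results of these data known. Named are the 5 genes, both lists and the 10 most alike probes. No tissue marker could be matched to a clone code. Alternatives were other background corrections, scalings, filters, blocks, a stricter threshold (0.01), the deposited table, larvae left out in turn and the methods' analysis of variance. Those added after seeing the data were leaving out slide 7, 15 h or 24 h. The fits were tested on simulated data. Figures used matplotlib 3.10.9.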

Additional observations from a re-analysis of the deposited data

Results flagged for a closer look

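Of the 45 groups of larvae (5 genes at 9 times) 2 held a value apart from the rest by Dixon's test, where chance gives about 1 in 20. In cyclin B2 at 15 h, replicate 6 had -3.26 and the next lowest larva -2.61. In cyclin B3 at 18 h, replicate 4 had -0.54 and the next lowest 0.41.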

How the results depend on the processing

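The 5 genes kept their call in the F test in all alternatives apart from normexp correction (4 of 5, without cyclin B2), and in the cosine fit in all. Fitted peaks stayed between 10.6 and 12.0 h for cyclin A2 and cdk1-B and between 13.1 and 14.4 h for the B cyclins. Normexp with an offset of 50 left 8 G2/M partners and 4 G1/S genes past the F test and 3 genes higher at 15 h than at 3 h, and it called 3 genes for 18 h over 15 h. It also turned the sign of 18 h over 15 h in cyclin B2 (0.32) and of the change at 15 h over 9 h of cyclin B2 over cyclin A2 (-0.16), cyclin B2 over cdk1-B (-0.26) and cyclin B3 over cyclin B1 (0.22). The cause was not tested. Successive times gave 1 call for 15 h over 12 h and 2 for 18 h over 15 h with slide, scan batch or replicate block, and 1 for 21 h over 18 h with the slide block only. The replicate block changed no other call of the 5 genes. Same-numbered larvae had a median correlation of 0.18 (others -0.06), and 31 of 53 larvae correlated best with their own number, a hint from the data of a link. The labels state none and the lowest correlation was -0.24, so numbers were not used as pairs. In 33 of 53 larvae the number was also the number of the slide, and the mean deviation of the 5 genes by number ran between -0.51 and 0.38. Leaving out a replicate number or a larva of 12 h gave 3 to 5 genes higher at 15 h than at 3 h, with 3 without replicate 5, 11 to 15 G2/M partners and 8 to 11 G1/S genes, and moved cyclin B3 over cyclin B1 between -0.077 and 0.0718. Pairs whose change differed numbered 6 after normexp correction (3 for 15 h over 9 h and 3 for 21 h over 15 h) and 0 to 5 with a replicate number left out, with 0 without replicate 2, 3, 4, 5 or 6, where 5 larvae a time allow no exact p under 0.00794 and 5 pairs would have to reach it. They numbered 0 at a threshold of 0.01, for 15 h over 12 h, and without slide 7. Cyclin B2 had the faintest signal of the 5 genes, below 82.5 fluorescence units on every array. Whether its dependence on the processing came from this was not tested.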
